A study of Mus musculus with 23 samples.

Results

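Mouse cells resembling primordial germ cells (PGCLCs), taken at day 6 of induction, were compared with the embryonic stem (ES) cells from which the same culture route starts. A gene entered the comparison where the deposited table gave it at least 1 FPKM (fragments per kilobase of transcript, scaled to the mapped fragments of the library) in either group, which 11690 of 22784 genes did. The comparison is part of a study of oocyte production in culture, with 23 samples in 8 groups and poly(A) RNA read from directional libraries. The day 6 PGCLCs were induced from female epiblast-like cells, purified by flow sorting, and sequenced as 2 libraries from 10000 cells each. The ES cells were female, were kept in 2i and LIF (inhibitors of MEK and GSK3 with leukaemia inhibitory factor), and gave 3 libraries from 10000 to 13200 cells. Both groups carried the strain label C57BL/6 X 129. The protocol in the labels allows ES or induced pluripotent stem cells as the start of the route. The labels name no allele, reporter or sorting marker for either group, and do not say whether the libraries come from 1 cell line or several. Induction, medium and sorting differ between the groups together, so their shares in any difference cannot be told apart.

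Primordial germ cells (PGCs) are the founders of eggs and sperm. In the mouse embryo they arise from the epiblast under BMP and WNT signals, through the transcription factors PRDM1, PRDM14 and TFAP2C. They are known to close down the somatic programme, to keep or regain core pluripotency factors, to lose most DNA methylation, and only later to switch on the genes of gamete formation. ES cells in 2i and LIF are a culture form of naive pluripotency, the state of the early epiblast.

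The table holds 1 value per gene and group, so no difference given here has a replicate check, an error or a test, and the read depth behind the values is unknown. A log2 ratio is the log2(FPKM + 1) value of day 6 PGCLCs minus that of ES cells, a scale that understates the differences of genes with low values. A gene is called higher or lower where that ratio reaches 2-fold. By that rule 1371 genes were higher in day 6 PGCLCs, which is 11.7% of those compared, and 1712 were lower, which is 14.6%. The other 8607 genes lay within 2-fold, and the median log2 ratio was -0.01. A ratio of 8-fold or more was reached by 109 genes on the higher side and 186 on the lower side. Of the genes compared, 860 entered only through PGCLCs and 1053 only through ES cells, and such genes had to differ in that direction. Counts over lists are therefore given with the number of members that passed the filter, and they describe these values only. Each count of higher or lower members is to be read against the 11.7% and 14.6% of all genes compared. In bulk samples like these, fewer cells that use a gene and less of its RNA per cell cannot be told apart.

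**Figure D1:**
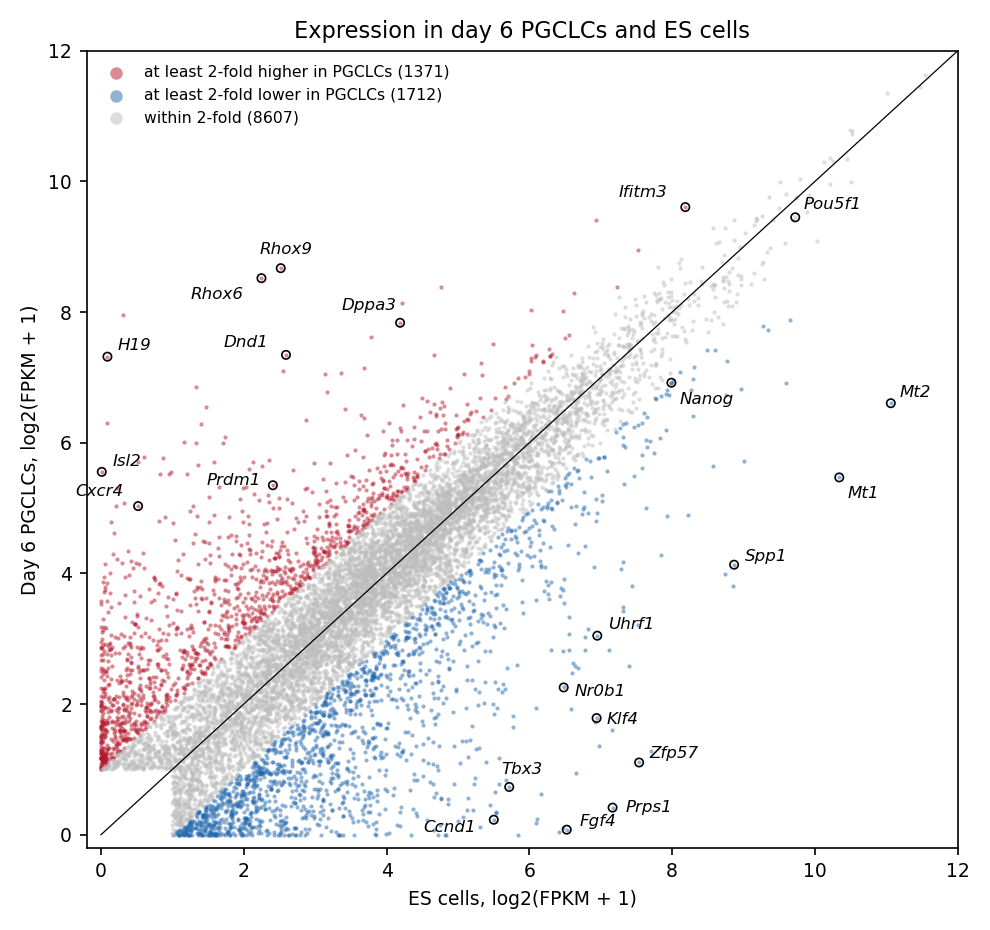
Each point is a gene, placed by its log2(FPKM + 1) in ES cells on the horizontal axis and in day 6 PGCLCs on the vertical axis, with 1 value per group and the diagonal marking equal levels. The 1371 genes called higher lie above the band of 8607 genes within 2-fold and the 1712 called lower lie below it, and circles mark named genes.

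Of the list of PGC specification and early germ cell genes, 17 of 18 members passed the filter. Among these, 11 were higher in day 6 PGCLCs and none was lower, where 11.7% of all genes compared were higher and 14.6% lower. Of the 11, 2 were under 1 FPKM in ES cells and could fall on no other side. Their median log2 ratio was 2.47, against -0.01 over all genes compared. Prdm1, the repressor that begins PGC specification, had 39.8 FPKM in day 6 PGCLCs and 4.31 FPKM in ES cells (log2 ratio 2.94). It is at chr10:44437174-44528558 in GRCm38. Tfap2c, the AP-2 factor that acts with it, had 97.8 FPKM in day 6 PGCLCs and 26.4 FPKM in ES cells (log2 ratio 1.85). Both factors were thus detected in ES cells as well, Tfap2c at the higher level of the pair. Prdm14, which ES cells also use, stayed within 2-fold, with 40.3 FPKM in PGCLCs against 21.4 FPKM in ES cells (log2 ratio 0.88).

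The surface members differed in their level in ES cells. Cxcr4, the chemokine receptor that guides migrating PGCs, was at 31.7 FPKM in day 6 PGCLCs and 0.434 FPKM in ES cells (log2 ratio 4.51). Itgb3, the integrin beta 3 chain used as a surface marker of PGCLCs, was at 12.2 FPKM in day 6 PGCLCs and 0.378 FPKM in ES cells (log2 ratio 3.27). Both were under 1 FPKM in ES cells. Ifitm1 and Ifitm3 (Fragilis), interferon-induced membrane proteins long used as early PGC markers, were abundant in both groups. Ifitm1 had 678 FPKM in PGCLCs against 122 FPKM in ES cells, and Ifitm3 had 779 FPKM in day 6 PGCLCs and 289.9 FPKM in ES cells. The neighbouring family member Ifitm2 was within 2-fold, with 410.5 FPKM in day 6 PGCLCs and 343 FPKM in ES cells. Kit, the receptor for stem cell factor, had 84.0 FPKM in PGCLCs against 43.2 FPKM in ES cells, a log2 ratio of 0.94 that lies just inside 2-fold and passes it under quantile normalization and under scaling to equal sums. Alpl, the alkaline phosphatase that stains both PGCs and ES cells, had 183 FPKM in day 6 PGCLCs and 123 FPKM in ES cells and was within 2-fold.

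The highest ratios of the list belonged to Rhox6 and Rhox9, reproductive homeobox genes of the Rhox cluster on the X chromosome. Rhox6 (chrX:37827055-37829857) had 366 FPKM in day 6 PGCLCs and 3.75 FPKM in ES cells, a log2 ratio of 6.27. Rhox9 (chrX:37899097-37901770) had 407 FPKM in PGCLCs against 4.73 FPKM in ES cells, a log2 ratio of 6.15. Both stayed abundant in PGCLCs joined with somatic cells of the gonad for 3 further days (reaggregated PGCLCs) and in PGCs of E12.5 embryos, which came from another strain cross. Rhox6 had 278 FPKM in reaggregated PGCLCs and 179.9 FPKM in E12.5 PGCs, and Rhox9 had 396 FPKM in reaggregated PGCLCs and 281 FPKM in E12.5 PGCs. Rhox5, at the same cluster, went the other way within 2-fold, with 427 FPKM in day 6 PGCLCs and 609 FPKM in ES cells. Of 11 Rhox genes compared, 6 were called higher, the other four of them at under 3 FPKM in day 6 PGCLCs. Rhox genes have closely related copies, so the split of reads among them is uncertain.

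Among late germ cell genes, which are used in gamete formation, 20 of 26 passed the filter. Of these, 11 were higher and 2 were lower in day 6 PGCLCs, with a median log2 ratio of 1.63, and 6 of the 11 entered through PGCLCs alone. That median rests on low values in ES cells, and it was 0.16 when no pseudocount was used and both groups had to reach 1 FPKM, and 0.44 over all 26 members. Dazl, an RNA-binding protein that licenses gamete development, had 30.1 FPKM in day 6 PGCLCs and 7.86 FPKM in ES cells (log2 ratio 1.81). Ddx4, the germline RNA helicase also called Vasa, had 13.1 FPKM in PGCLCs against 0.812 FPKM in ES cells (log2 ratio 2.96). Both were far higher later in the series, Dazl with 432 FPKM and Ddx4 with 135 FPKM in E12.5 PGCs.

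Members of the piRNA pathway, which silences transposons in germ cells, showed some of the largest ratios of the list. Tdrd5, a Tudor-domain protein, had 15.1 FPKM in day 6 PGCLCs and 0.0935 FPKM in ES cells (log2 ratio 3.88). Asz1, a component of germ granules, had 7.04 FPKM in day 6 PGCLCs and 0.176 FPKM in ES cells, and Mov10l1, the RNA helicase that starts piRNA processing, had 5.91 FPKM in PGCLCs against 0.186 FPKM in ES cells. Piwil2 (Mili), a PIWI protein that binds piRNAs, had 12.6 FPKM in day 6 PGCLCs and 1.68 FPKM in ES cells. Fkbp6, a co-chaperone of the pathway, was already present in ES cells and was higher still, with 65.8 FPKM in day 6 PGCLCs and 19.9 FPKM in ES cells. Not every member of the pathway followed. Tdrd12 had 30.9 FPKM in day 6 PGCLCs and 70.5 FPKM in ES cells and was lower (log2 ratio -1.17). Gtsf1, Pld6 and Gpat2 were within 2-fold, and Tdrd1 and Tdrd9 were under 1 FPKM in both groups. Members listed outside the pathway also differed in direction. Stk31, a Tudor-domain protein with a kinase domain, had 14.1 FPKM in PGCLCs against 2.10 FPKM in ES cells. Morc1 was within 2-fold with 30.0 FPKM in day 6 PGCLCs and 46.2 FPKM in ES cells. Tuba3a had the lowest ratio of the list (-1.74), with 8.73 FPKM in day 6 PGCLCs and 31.4 FPKM in ES cells.

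Late germ cell genes are known targets of the repressor complex PRC1.6, whose MAX and MGA subunits bind E-boxes, so promoter sequence is shown for members of the list. The window runs from 250 bases before to 50 bases after the start given in the RefSeq promoter table. For Ddx4, Mov10l1 and Stk31 that start lies inside the span of the annotated gene and not at its outer end. The motif searched is CACGTG, which reads the same on both strands. Of 10 members called higher that have a promoter in the RefSeq table, 7 hold the motif, and of 12 members that were not higher or not compared, 4 do. Over all genes compared with a promoter sequence the share is 12.3%, over the 1017 called higher it is 13.0%, and over all 16749 promoters it is 9.19%. None of 11 early PGC genes with a promoter holds it. The motif contains a CpG, and the sets also differ in CpG content. The median number of CpG in the window is 26 for the late germ cell genes called higher and 14 for those not higher or not compared. It is 22 over all genes compared and 10 for the early PGC genes. The part of CpG content in the motif counts was not tested. The 3 members called higher with the largest ratios among those that hold the motif are shown, and Dazl as a member without it, 5′ to 3′ in GRCm38.p6, with capitals marking the motif. Ddx4 is at chr13:112652261-112652560 on the minus strand, Mov10l1 at chr15:88982744-88983043 on the plus strand, Stk31 at chr6:49395289-49395588 on the plus strand and Dazl at chr17:50293571-50293870 on the minus strand.
Ddx4: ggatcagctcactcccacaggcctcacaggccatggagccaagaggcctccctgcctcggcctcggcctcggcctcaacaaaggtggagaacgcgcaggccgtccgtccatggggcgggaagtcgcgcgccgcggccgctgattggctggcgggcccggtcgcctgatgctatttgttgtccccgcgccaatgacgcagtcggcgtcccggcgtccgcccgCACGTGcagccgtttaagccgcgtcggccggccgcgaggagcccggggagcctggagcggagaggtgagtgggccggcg
Mov10l1: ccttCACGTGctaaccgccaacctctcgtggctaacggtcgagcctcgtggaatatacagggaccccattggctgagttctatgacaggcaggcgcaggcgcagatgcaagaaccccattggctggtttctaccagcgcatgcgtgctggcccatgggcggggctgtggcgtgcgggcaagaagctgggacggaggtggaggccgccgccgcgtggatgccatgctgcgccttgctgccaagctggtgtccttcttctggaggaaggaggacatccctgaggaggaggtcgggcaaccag
Stk31: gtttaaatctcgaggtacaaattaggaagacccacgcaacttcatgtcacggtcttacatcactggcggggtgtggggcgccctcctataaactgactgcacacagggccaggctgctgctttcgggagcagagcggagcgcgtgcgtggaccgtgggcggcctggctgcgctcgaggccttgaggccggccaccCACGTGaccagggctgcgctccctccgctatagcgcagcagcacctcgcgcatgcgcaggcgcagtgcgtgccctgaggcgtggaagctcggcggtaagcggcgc
Dazl: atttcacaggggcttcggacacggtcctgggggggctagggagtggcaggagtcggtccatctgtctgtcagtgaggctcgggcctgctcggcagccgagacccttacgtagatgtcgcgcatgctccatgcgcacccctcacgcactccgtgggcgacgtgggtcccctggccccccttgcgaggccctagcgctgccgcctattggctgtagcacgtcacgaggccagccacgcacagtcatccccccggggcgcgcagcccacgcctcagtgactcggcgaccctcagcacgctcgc
The motif begins at base 222 in the Ddx4 window, at base 5 in that of Mov10l1 and at base 196 in that of Stk31, counted from the first base shown. A match describes the letters in the window only, and binding was not measured.

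Of 16 subunits of PRC1.6 compared, none was higher and 2 were lower in day 6 PGCLCs (where 14.6% of all genes compared were lower), with a median log2 ratio of -0.19. The 2 lower were Rybp, with 2.01 FPKM in PGCLCs against 7.02 FPKM in ES cells, and Wdr5, with 67.0 FPKM in day 6 PGCLCs and 157 FPKM in ES cells. L3mbtl2, a subunit particular to the complex, had 24.5 FPKM in day 6 PGCLCs and 46.1 FPKM in ES cells, Mga had 14.8 FPKM in PGCLCs against 22.8 FPKM in ES cells, and E2f6 had 12.1 FPKM in day 6 PGCLCs and 8.50 FPKM in ES cells, all within 2-fold.

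Of 25 meiotic prophase genes, 17 passed the filter, 7 were higher and 1 was lower, and 3 of the 7 entered through PGCLCs alone. The median log2 ratio was 0.73, and 1.14 with a pseudocount of 0.1 FPKM. Over all 25 members it was smaller, at 0.38. Stra8, the gene that marks entry into meiosis, was listed at 0 in day 6 PGCLCs and at 0.267 FPKM in ES cells. Syce2, a part of the synaptonemal complex, was the most abundant of the higher genes, with 156 FPKM in day 6 PGCLCs and 64.0 FPKM in ES cells. Smc1b and Stag3, subunits of meiotic cohesin, were higher too. Smc1b had 11.3 FPKM in PGCLCs against 1.48 FPKM in ES cells, and Stag3 had 28.9 FPKM in day 6 PGCLCs and 13.1 FPKM in ES cells. Sycp3, of the chromosome axis, had 6.42 FPKM in day 6 PGCLCs and 2.43 FPKM in ES cells. The lower member was Hormad1, which marks unsynapsed axes, with 2.02 FPKM in PGCLCs against 10.8 FPKM in ES cells.

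**Figure D2:**
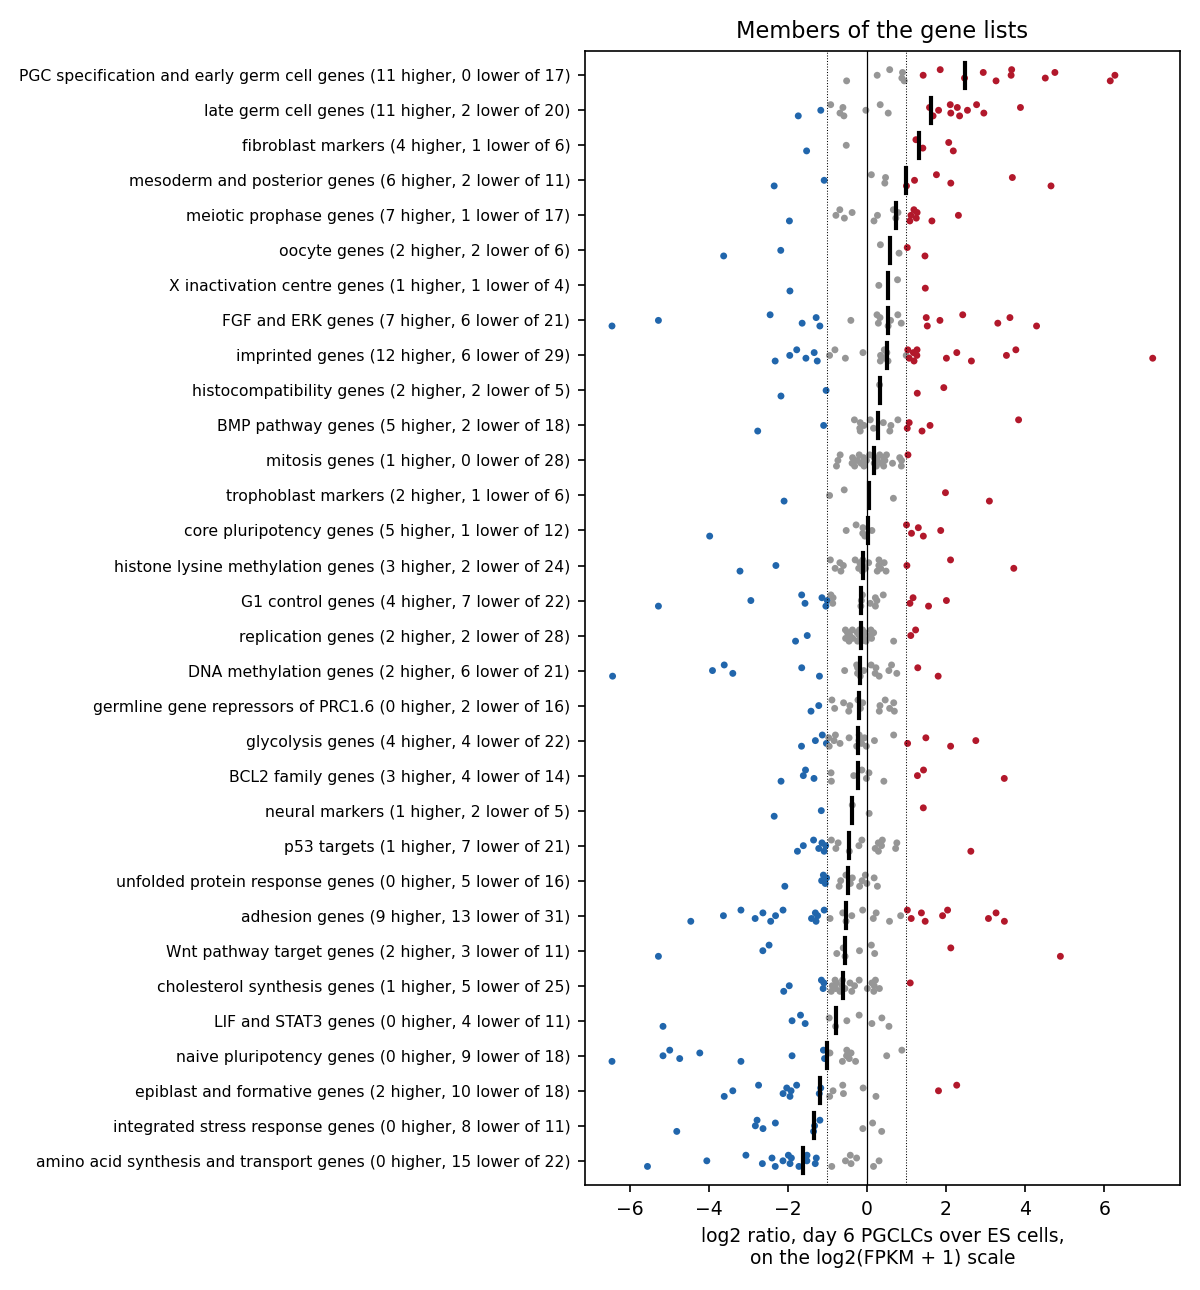
Each point is a list member with at least 1 FPKM in either group, placed by its log2 ratio on the horizontal axis, for each list with at least 4 such members, gene families left out, and black bars mark the medians. Lists run down the page from the highest median, that of the PGC specification genes at 2.47, to the lowest, that of the amino acid genes at -1.62; dotted lines mark 2-fold.

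The naive and the core pluripotency genes differed in how they compared. All 18 naive genes passed the filter, and 9 were lower in day 6 PGCLCs and none higher, with a median log2 ratio of -1.00. That median lies at the threshold, and it came inside 2-fold under quantile normalization (-0.87), equal sums (-0.94) and centring. It also did so with a pseudocount of 5 FPKM (-0.98) and with no pseudocount (-0.78). Of 12 core genes, 5 were higher and 1 lower, with a median of 0.04. Pou5f1 (Oct4) had 699 FPKM in day 6 PGCLCs and 845 FPKM in ES cells, and Sox2 had 203 FPKM in day 6 PGCLCs and 219 FPKM in ES cells, both within 2-fold. Nanog had 120.0 FPKM in PGCLCs against 253 FPKM in ES cells and was lower, at a log2 ratio of -1.07.

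Inside the naive list the transcription factors split. Klf2, Klf5, Esrrb, Nr5a2 and Prdm14 stayed within 2-fold, Esrrb with 90.6 FPKM in day 6 PGCLCs and 139.8 FPKM in ES cells and Klf2 with 130.2 FPKM in day 6 PGCLCs and 186 FPKM in ES cells. Tbx3, a T-box factor of the naive network, was at 0.661 FPKM in PGCLCs against 51.6 FPKM in ES cells (log2 ratio -4.99). Nr0b1 (Dax1), an X-linked orphan nuclear receptor, was at 3.77 FPKM in day 6 PGCLCs and 88.3 FPKM in ES cells (log2 ratio -4.23). Tfcp2l1, a factor downstream of LIF and STAT3, was intermediate, with 25.9 FPKM in day 6 PGCLCs and 98.9 FPKM in ES cells (log2 ratio -1.89). Outside the transcription factors, Spp1 (osteopontin) had 16.6 FPKM in PGCLCs against 466 FPKM in ES cells, and Jam2, a junction protein, had 4.04 FPKM in day 6 PGCLCs and 44.9 FPKM in ES cells.

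Several core genes were higher in day 6 PGCLCs. Utf1, a chromatin-bound factor of undifferentiated cells, had 494 FPKM in day 6 PGCLCs and 183 FPKM in ES cells (log2 ratio 1.43). Dppa4, which pairs with Dppa2 on CpG-rich promoters, had 74.9 FPKM in PGCLCs against 19.8 FPKM in ES cells, and Dppa2 had 13.5 FPKM in day 6 PGCLCs and 5.64 FPKM in ES cells. Sall4, a zinc finger factor that PGCs also need, was at the threshold, with 101 FPKM in day 6 PGCLCs and 49.9 FPKM in ES cells (log2 ratio 1.00). Lin28b, which blocks let-7 maturation, had 4.66 FPKM in PGCLCs against 1.30 FPKM in ES cells. The exception was Foxd3, a forkhead factor of ES cells, at 0.00904 FPKM in day 6 PGCLCs and 14.9 FPKM in ES cells.

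**Figure D3:**
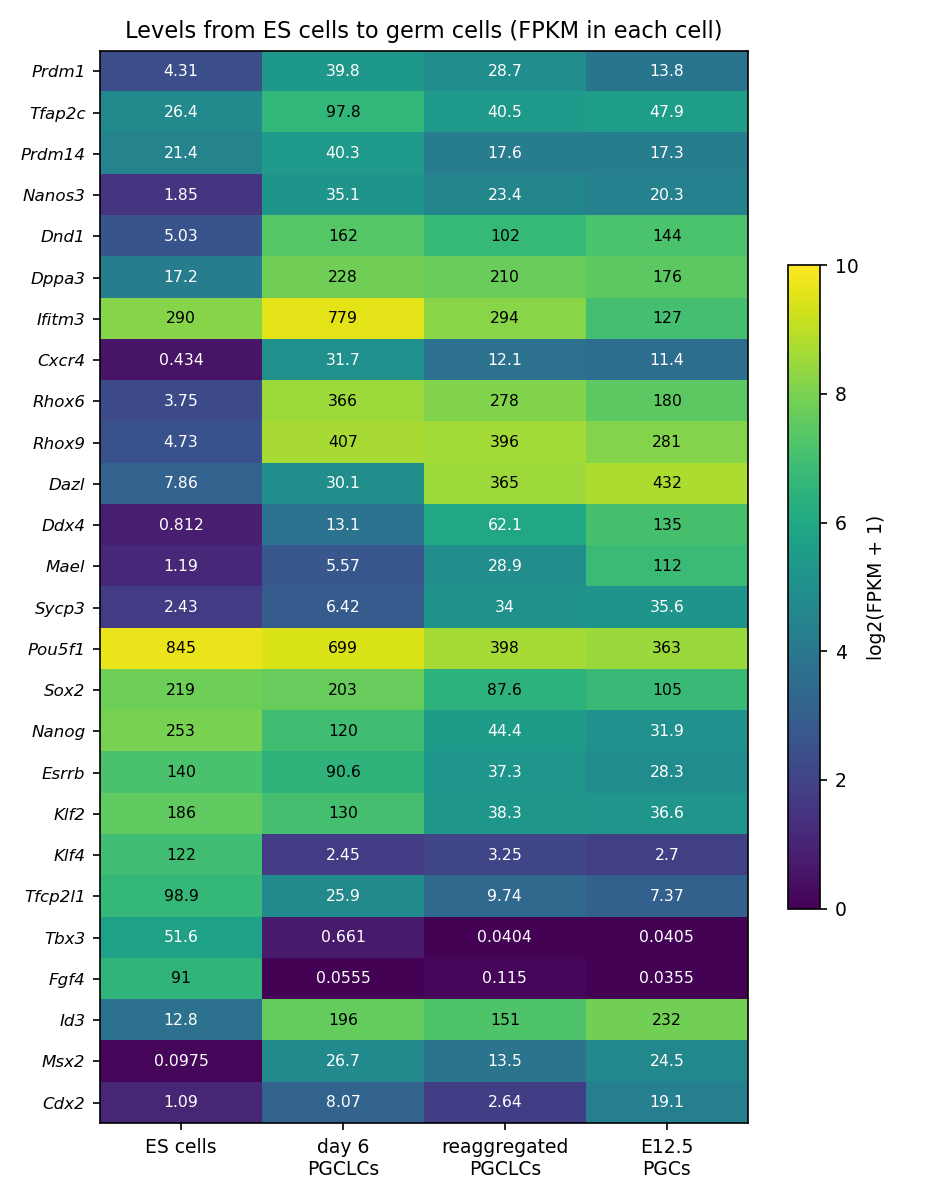
Colour gives log2(FPKM + 1) and the number in each cell the FPKM, for 26 list members in ES cells, day 6 PGCLCs, PGCLCs cultured with gonadal somatic cells and E12.5 PGCs, 1 value per group. Rhox6 and Rhox9 had 366 and 407 FPKM in day 6 PGCLCs, against 3.75 and 4.73 FPKM in ES cells, Dazl and Ddx4 are highest in the fourth (432 and 135 FPKM), and Tbx3 and Fgf4 are under 1 FPKM in every column but that of ES cells.

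Genes of the primed or formative epiblast stand for the state between ES cells and PGCLCs in this route. Of 20 members 18 passed the filter, and 10 of them were lower and 2 higher in day 6 PGCLCs. Of the 10, 6 entered through ES cells alone, and both of the higher ones through PGCLCs alone. The list's median log2 ratio was -1.19. Otx2, a homeobox factor that opposes germ cell entry in the mouse, had 0.671 FPKM in day 6 PGCLCs and 6.27 FPKM in ES cells (log2 ratio -2.12). Fgf5, the usual epiblast-like cell marker, was under 1 FPKM in both groups. Among the NODAL pathway members, Nodal had 11.3 FPKM in PGCLCs against 27.3 FPKM in ES cells, Lefty2, its inhibitor, had 30.5 FPKM in day 6 PGCLCs and 107 FPKM in ES cells, and Tdgf1, its co-receptor, had 29.2 FPKM in day 6 PGCLCs and 122 FPKM in ES cells. These were lower in day 6 PGCLCs, while Lefty1, a further inhibitor, was within 2-fold, with 11.4 FPKM in PGCLCs against 22.8 FPKM in ES cells. The 2 higher members were Sox4, with 5.13 FPKM in day 6 PGCLCs and 0.748 FPKM in ES cells, and Car12, a carbonic anhydrase, with 6.24 FPKM in day 6 PGCLCs and 0.499 FPKM in ES cells.

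Of 22 mesoderm and posterior genes, 11 passed the filter, and 6 were higher and 2 lower. Among the 6, 5 were under 1 FPKM in ES cells and entered through PGCLCs alone, so their direction was fixed by the filter. The median log2 ratio was 1.00, and 0.10 over all 22 members. T (Brachyury), Eomes and Mixl1, the defining factors of the primitive streak, were under 1 FPKM in both groups. Msx2, a homeobox target of BMP, had 26.7 FPKM in PGCLCs against 0.0975 FPKM in ES cells (log2 ratio 4.66). Tbx4, a T-box factor, had 12.2 FPKM in day 6 PGCLCs and 0.0308 FPKM in ES cells (log2 ratio 3.68), and Cdx2, a posterior homeobox factor, had 8.07 FPKM in day 6 PGCLCs and 1.09 FPKM in ES cells. Msx2 was still at 24.5 FPKM in E12.5 PGCs. The lower members were Gsc, with 0.110 FPKM in PGCLCs against 4.64 FPKM in ES cells, and Snai1, with 1.13 FPKM in day 6 PGCLCs and 3.51 FPKM in ES cells, which falls inside 2-fold under quantile normalization.

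BMP signalling induces PGC fate, and 18 of 25 genes of the pathway passed the filter. Of these, 5 were higher (27.8%, against 11.7% of all genes compared) and 2 lower (11.1%, against 14.6%). Of the ligands, Bmp7 was higher, with 8.08 FPKM in day 6 PGCLCs and 2.46 FPKM in ES cells, while Bmp4 was within 2-fold, with 6.09 FPKM in PGCLCs against 3.66 FPKM in ES cells. Bmp8a was lower (log2 ratio -1.09), with 0.153 FPKM in day 6 PGCLCs and 1.46 FPKM in ES cells, and entered through ES cells alone. The 5 receptors compared were all within 2-fold. Smad5, one of the signal transducers, had 7.94 FPKM in day 6 PGCLCs and 3.41 FPKM in ES cells (log2 ratio 1.02). The Id genes, direct targets that encode inhibitors of helix-loop-helix factors, did not move as one. Id3 had 196 FPKM in day 6 PGCLCs and 12.8 FPKM in ES cells (log2 ratio 3.84), Id1 had 11.3 FPKM in PGCLCs against 3.06 FPKM in ES cells, and Id2 was within 2-fold with 8.15 FPKM in day 6 PGCLCs and 5.13 FPKM in ES cells. Id4 was lower, with 1.66 FPKM in day 6 PGCLCs and 17.0 FPKM in ES cells (log2 ratio -2.76).

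In the FGF and ERK list, 21 of 24 passed the filter, 7 were higher and 6 lower. The ES cell medium contains a MEK inhibitor, which blocks the step before ERK, so medium and cell type cannot be told apart here. Fgfr2 had 16.7 FPKM in PGCLCs against 0.446 FPKM in ES cells, and Fgfr3 had 4.62 FPKM in day 6 PGCLCs and 0.0482 FPKM in ES cells, both receptors being higher in day 6 PGCLCs. Of 8 feedback inhibitors, 4 were higher and none lower. Dusp4, a phosphatase that acts on ERK, had 62.8 FPKM in day 6 PGCLCs and 2.26 FPKM in ES cells (log2 ratio 4.29). Dusp5 had 28.8 FPKM in PGCLCs against 2.00 FPKM in ES cells, Dusp6 had 25.5 FPKM in day 6 PGCLCs and 8.19 FPKM in ES cells, and Spry4 had 9.85 FPKM in day 6 PGCLCs and 2.83 FPKM in ES cells. Of 9 targets, Egr1, Egr2, Fos, Myc and Ccnd1 were lower, Ier3 was higher, and Etv4, Etv5 and Phlda1 were within 2-fold. Egr1 had 13.1 FPKM in PGCLCs against 76.1 FPKM in ES cells, Myc had 0.594 FPKM in day 6 PGCLCs and 3.96 FPKM in ES cells, and Ccnd1 (cyclin D1) had 0.173 FPKM in day 6 PGCLCs and 44.3 FPKM in ES cells (log2 ratio -5.27).

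Of 18 Wnt target genes, 11 passed the filter, and 2 were higher and 3 lower. Inhibition of GSK3 in the ES cell medium keeps beta-catenin active, which again cannot be told apart from cell type. Lef1, the beta-catenin partner, had 53.3 FPKM in PGCLCs against 0.830 FPKM in ES cells, a log2 ratio of 4.89, and is at chr3:131110297-131224357. Notum, a secreted inhibitor of WNT, had 7.97 FPKM in day 6 PGCLCs and 48.8 FPKM in ES cells, and Sp5 had 0.617 FPKM in day 6 PGCLCs and 9.02 FPKM in ES cells. Axin2, the usual readout gene, was within 2-fold, with 11.1 FPKM in PGCLCs against 12.8 FPKM in ES cells. Porcn, the enzyme that attaches lipid to WNT proteins, had 92.1 FPKM in day 6 PGCLCs and 1.77 FPKM in ES cells (log2 ratio 5.07). It was in the 15 highest ratios of genes with at least 10 FPKM in either group, predicted and clone names left aside.

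In the LIF and STAT3 list all 11 members passed the filter, none was higher and 4 were lower, with a median log2 ratio of -0.79. Besides Tfcp2l1 these included Socs3, the feedback inhibitor of STAT3, with 10.6 FPKM in day 6 PGCLCs and 36.1 FPKM in ES cells, and Bcl3, with 15.5 FPKM in PGCLCs against 47.8 FPKM in ES cells. The receptor chains Lifr and Il6st were within 2-fold, with Il6st at 21.8 FPKM in day 6 PGCLCs and 25.2 FPKM in ES cells.

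Among genes that set and read DNA methylation, 21 of 22 passed the filter, 2 were higher and 6 lower. The maintenance methyltransferase Dnmt1 was level, with 89.4 FPKM in day 6 PGCLCs and 83.0 FPKM in ES cells, and its partner Uhrf1 had 7.26 FPKM in PGCLCs against 123 FPKM in ES cells. Uhrf2, the relative of Uhrf1, was higher, with 41.8 FPKM in day 6 PGCLCs and 11.3 FPKM in ES cells (log2 ratio 1.80). Of the TET enzymes, which oxidise methylcytosine, Tet1 was within 2-fold with 31.5 FPKM in day 6 PGCLCs and 37.3 FPKM in ES cells, while Tet2 had 3.84 FPKM in PGCLCs against 10.1 FPKM in ES cells and Tet3 had 0.314 FPKM in day 6 PGCLCs and 3.12 FPKM in ES cells. Mbd2, a reader of methylated DNA, was the other higher member, with 10.4 FPKM in day 6 PGCLCs and 3.65 FPKM in ES cells.

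PGCs are known to lose H3K9 dimethylation and gain H3K27 trimethylation, and 24 genes of these marks were compared. Of these, 3 were higher and 2 lower, where 11.7% of all genes compared were higher and 14.6% lower. The other 19 were within 2-fold, and the median log2 ratio was -0.11. The list as a whole thus did not stand out on the higher or the lower side, and the members below are single genes. The H3K9 enzymes Ehmt1 and Ehmt2 were within 2-fold, Ehmt1 (GLP) with 7.57 FPKM in PGCLCs against 15.3 FPKM in ES cells and Ehmt2 (G9a) with 44.6 FPKM in day 6 PGCLCs and 48.1 FPKM in ES cells. Suv39h1, an X-linked H3K9 trimethylase, was higher, with 37.3 FPKM in day 6 PGCLCs and 7.85 FPKM in ES cells (log2 ratio 2.11). Ezh2, the H3K27 methyltransferase of PRC2, had 72.4 FPKM in PGCLCs against 56.7 FPKM in ES cells and was within 2-fold. Accessory subunits of PRC2 went different ways. Phf19 had 30.1 FPKM in day 6 PGCLCs and 1.37 FPKM in ES cells (log2 ratio 3.71), and Jarid2 had 69.1 FPKM in day 6 PGCLCs and 33.8 FPKM in ES cells (log2 ratio 1.01). Mtf2, Phf1 and Aebp2 were within 2-fold. Epop, listed under its older symbol E130012A19Rik, was lower, with 15.8 FPKM in PGCLCs against 154 FPKM in ES cells (log2 ratio -3.21). The H3K27 demethylase Kdm6b had 2.95 FPKM in day 6 PGCLCs and 18.5 FPKM in ES cells.

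Imprinted genes, which are expressed from 1 parental copy, varied widely. Of 37 members found, 29 passed the filter, and 12 were higher, 6 of these entering through PGCLCs alone, and 6 lower, and calls lay on both sides among paternally and maternally expressed members. Phlda2, a maternally expressed placental growth gene, had 47.5 FPKM in day 6 PGCLCs and 3.20 FPKM in ES cells (log2 ratio 3.53). Peg3, a paternally expressed zinc finger gene, had 78.0 FPKM in PGCLCs against 15.4 FPKM in ES cells, and Dlk1, a paternally expressed NOTCH-like ligand, had 5.39 FPKM in day 6 PGCLCs and 0.0234 FPKM in ES cells. In the domain of Dlk1 the maternal noncoding RNAs went the other way. Meg3 had 30.9 FPKM in day 6 PGCLCs and 75.1 FPKM in ES cells, and Rian had 11.0 FPKM in PGCLCs against 40.2 FPKM in ES cells. Grb10, a growth inhibitor, was lower with 0.989 FPKM in day 6 PGCLCs and 8.93 FPKM in ES cells, as was Plagl1, with 9.35 FPKM in day 6 PGCLCs and 39.0 FPKM in ES cells.

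Genes on the X chromosome differed from those on the autosomes as a group. Over 434 X-linked genes the median log2 ratio was -0.70, against 0.01 over 11209 autosomal genes. The medians of the 19 autosomes lay between -0.06 and 0.10. Of the X-linked genes, 38.5% were called lower and 7.60% higher in day 6 PGCLCs, against 13.7% and 11.9% of the autosomal genes. No autosome had more than 16.8% or fewer than 10.9% lower. This grouping was chosen after values of the comparison had been seen.

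The X-linked difference was not confined to low values. When both groups had to reach 1 FPKM and no pseudocount was added, the median ratio of PGCLCs to ES cells was 0.654 for 320 X-linked genes and 1.02 for 9418 autosomal genes. The middle 50% of X-linked ratios ran from 0.389 to 0.965, and that of autosomal ratios from 0.727 to 1.38. Over genes with at least 10 FPKM in either group the median log2 ratios were -0.74 for 236 X-linked genes and 0.04 for 6373 autosomal genes. A pseudocount of 5 FPKM gave -0.39 for X-linked genes. When the X-linked genes were split by position into 4 parts of equal gene number, the medians from the centromere on were -0.43, -0.89, -0.73 and -0.63. Without the Rhox genes the X-linked median was -0.72.

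Later groups set against the same ES cells gave values near these. The median X-linked ratio was 0.658 for reaggregated PGCLCs and 0.716 for E12.5 PGCs, and the autosomal one was 0.941 and 0.965. These share the ES cell values with the day 6 comparison and are no separate evidence. The number of X chromosomes per cell and their state were not measured in the files used here.

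**Figure D4:**
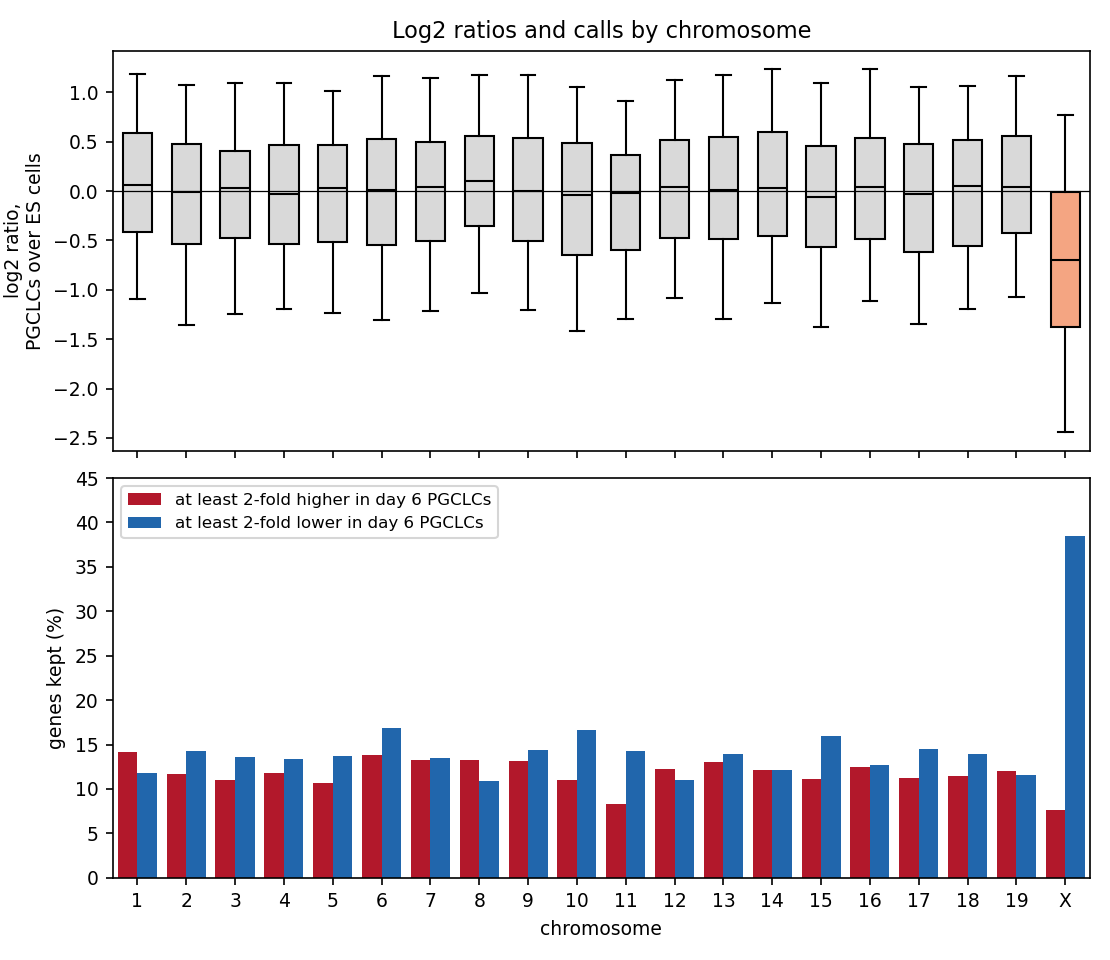
The upper panel shows log2 ratios by chromosome, with boxes for the middle 50% of genes, a line for the median and whiskers from the 10th to the 90th percentile. The lower panel gives the percent of genes kept that were called higher or lower in day 6 PGCLCs; the X chromosome stands apart with 38.5% lower, and the autosomes lie between 10.9% and 16.8%.

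Among single X-linked genes the lowest was Prps1, a phosphoribosyl pyrophosphate synthetase that feeds nucleotide synthesis, with 0.334 FPKM in PGCLCs against 143 FPKM in ES cells. Its log2 ratio of -6.75 was the lowest of all genes with at least 10 FPKM in either group, predicted and clone names left aside, and the gene is at chrX:140456603-140476140. It was also under 2 FPKM in the later groups, with 1.24 FPKM in reaggregated PGCLCs and 1.14 FPKM in E12.5 PGCs. Slc6a8, the creatine transporter, had 2.78 FPKM in day 6 PGCLCs and 94.8 FPKM in ES cells. Bex1 had 119.7 FPKM in day 6 PGCLCs and 772 FPKM in ES cells, and Tmsb4x (thymosin beta 4) had 51.9 FPKM in PGCLCs against 513 FPKM in ES cells. Against the trend, Porcn, Suv39h1 and Hmgn5 were higher, Hmgn5, a nucleosome-binding protein, with 108 FPKM in day 6 PGCLCs and 7.99 FPKM in ES cells. Genes known to escape X inactivation in the mouse did not behave alike, Kdm6a having 18.3 FPKM in day 6 PGCLCs and 19.7 FPKM in ES cells, and Ddx3x 127 FPKM in PGCLCs against 148 FPKM in ES cells. Kdm5c had 14.1 FPKM in day 6 PGCLCs and 31.2 FPKM in ES cells, and Eif2s3x had 2.86 FPKM in day 6 PGCLCs and 5.30 FPKM in ES cells. These 4 genes and Hmgn5 were chosen after their values were seen.

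Noncoding RNAs of the X inactivation centre were low in both groups. Xist, the RNA that coats the inactive X, had 1.93 FPKM in PGCLCs against 0.0538 FPKM in ES cells, and Tsix, its antisense partner, had 0.0212 FPKM in day 6 PGCLCs and 2.94 FPKM in ES cells. The libraries were directional, but the sources used here do not state the strand setting of the counting, so reads of the overlapping pair may not be told apart. Rlim, an activator of Xist, was within 2-fold, with 27.2 FPKM in day 6 PGCLCs and 21.9 FPKM in ES cells.

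Amino acid synthesis and transport genes had the lowest median of the lists with at least 5 members that passed the filter, a log2 ratio of -1.62. Of 23 members 22 passed the filter, and of these 15 were lower in day 6 PGCLCs and none was higher. Slc7a3, an X-linked carrier of cationic amino acids, had 2.04 FPKM in PGCLCs against 141 FPKM in ES cells (log2 ratio -5.55). Its relative Slc7a1 had 2.67 FPKM in day 6 PGCLCs and 29.6 FPKM in ES cells. Slc1a5, which brings in glutamine, had a log2 ratio of -2.12. Slc7a5, the leucine carrier, did not follow and had 119 FPKM in day 6 PGCLCs and 106 FPKM in ES cells.

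The enzymes showed the same direction across several routes. Cth, which makes cysteine, had 5.01 FPKM in PGCLCs against 98.4 FPKM in ES cells (log2 ratio -4.05). In the serine route, Phgdh had 3.01 FPKM in day 6 PGCLCs and 20.2 FPKM in ES cells, Psat1 had 72.5 FPKM in day 6 PGCLCs and 241 FPKM in ES cells and Psph had 14.0 FPKM in PGCLCs against 58.4 FPKM in ES cells. Aldh18a1 and Pycr1, of proline synthesis, were lower as well, Aldh18a1 with 6.01 FPKM in day 6 PGCLCs and 42.8 FPKM in ES cells. Asns, which makes asparagine, had 151 FPKM in day 6 PGCLCs and 434 FPKM in ES cells. In the mitochondrial one-carbon route Shmt2 had 33.6 FPKM in PGCLCs against 129 FPKM in ES cells and Mthfd1l had 6.76 FPKM in day 6 PGCLCs and 37.7 FPKM in ES cells, while the cytosolic Shmt1 was within 2-fold with 90.3 FPKM in day 6 PGCLCs and 72.8 FPKM in ES cells. Tdh, Gldc and Gcat, of threonine and glycine breakdown, were also within 2-fold, Tdh with 198 FPKM in PGCLCs against 262 FPKM in ES cells.

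Many of these enzymes are known targets of ATF4, the main factor of the integrated stress response. In that list 11 of 13 passed the filter, 8 were lower and none higher. Atf4 itself had 125 FPKM in day 6 PGCLCs and 314 FPKM in ES cells, Atf5 had 4.19 FPKM in day 6 PGCLCs and 35.7 FPKM in ES cells, and Nupr1, a stress-induced chromatin protein, had 5.01 FPKM in PGCLCs against 167 FPKM in ES cells. Ddit4 and Cebpg, further genes of the response, were within 2-fold and slightly above ES cells, Ddit4 with 93.6 FPKM in day 6 PGCLCs and 84.6 FPKM in ES cells. In the unfolded protein response list 5 of 16 were lower and none higher, Herpud1 having 3.66 FPKM in day 6 PGCLCs and 18.6 FPKM in ES cells. Pdia4 and Pdia6, which fold disulphide bonds, had log2 ratios of -1.05 and -1.02 and come inside 2-fold under scaling to equal sums.

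**Figure D5:**
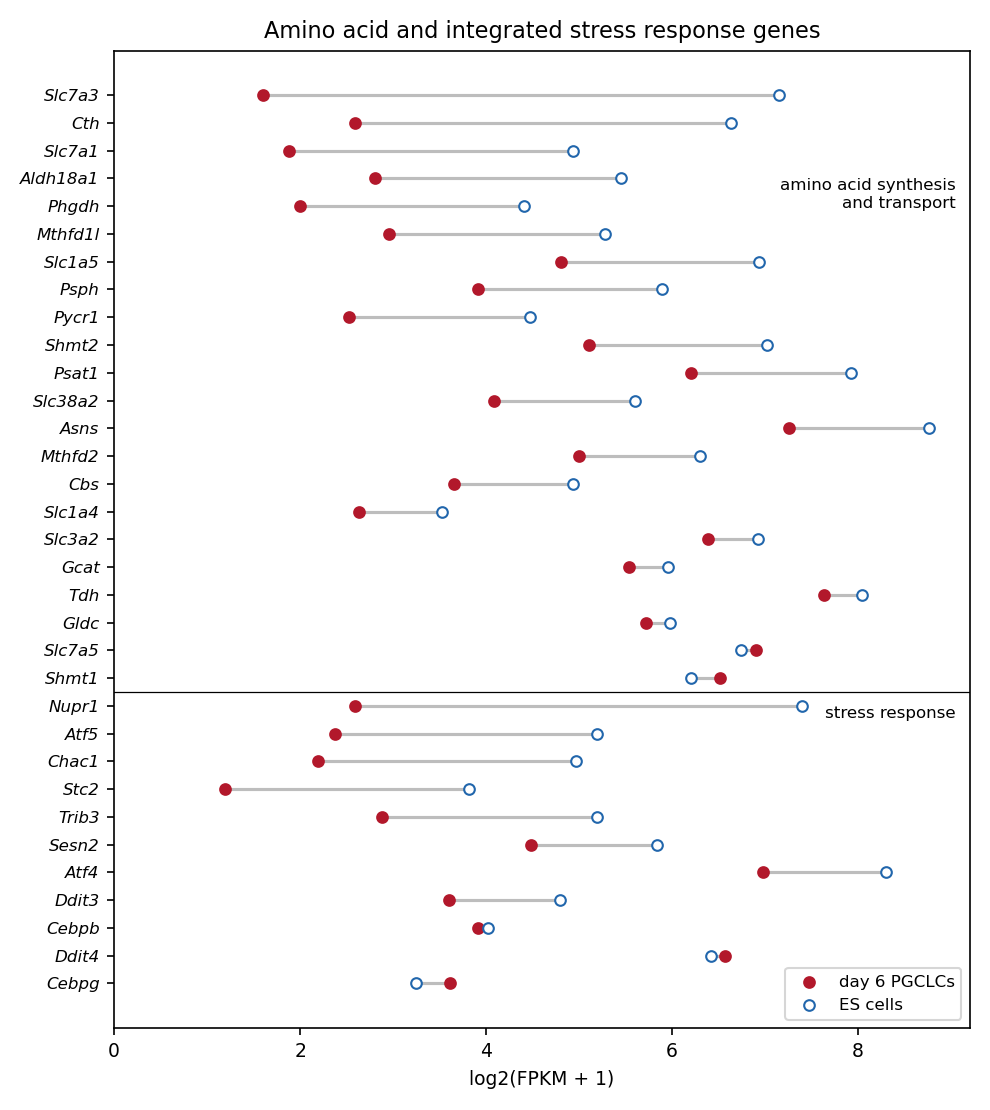
Filled points give log2(FPKM + 1) in day 6 PGCLCs and open points in ES cells, for the 22 amino acid genes above the line and the 11 integrated stress response genes below it, 1 value per group. The filled point lies left of the open one for all but Slc7a5, Shmt1, Ddit4 and Cebpg, and the widest gaps are those of Slc7a3, Nupr1 and Cth.

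Of 22 genes of the p53 list 21 passed the filter, and 7 were lower and 1 was higher. Cdkn1a (p21) had 40.9 FPKM in PGCLCs against 91.1 FPKM in ES cells, and Trp53 itself was within 2-fold with 133 FPKM in day 6 PGCLCs and 109 FPKM in ES cells. The higher member was Perp, a membrane protein of cell death and adhesion, with 16.8 FPKM in day 6 PGCLCs and 1.88 FPKM in ES cells. Of 16 BCL2 family genes 14 passed the filter, with 3 higher and 4 lower. No survival gene was called, and the death genes went both ways. Bik had 21.8 FPKM in PGCLCs against 1.05 FPKM in ES cells and Bad had 45.3 FPKM in day 6 PGCLCs and 18.1 FPKM in ES cells, while Bak1 had 8.40 FPKM in day 6 PGCLCs and 41.3 FPKM in ES cells.

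Of 23 genes of G1 control, the stage before DNA replication, 22 passed the filter. Of these, 4 were higher (18.2%, against 11.7% of all genes compared) and 7 lower (31.8%, against 14.6%), and 4 of the 7 entered through ES cells alone. Besides Ccnd1, Cdk2, the kinase that drives entry into S phase, had 10.7 FPKM in PGCLCs against 88.7 FPKM in ES cells (log2 ratio -2.93). Rb1, the retinoblastoma gene, had 7.00 FPKM in day 6 PGCLCs and 1.71 FPKM in ES cells, and E2f4 had 31.3 FPKM in day 6 PGCLCs and 94.5 FPKM in ES cells. Of 28 replication genes 2 were higher and 2 lower, with a median log2 ratio of -0.15, and of 28 mitosis genes 1 was higher and none lower, with a median of 0.19. That gene was Mki67, with 41.9 FPKM in PGCLCs against 19.9 FPKM in ES cells.

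Of 24 glycolysis genes 22 passed the filter, and 4 were higher and 4 lower, each 18.2% of those compared, against 11.7% and 14.6% of all genes. Pdk1, which keeps pyruvate out of the mitochondria, had 29.9 FPKM in day 6 PGCLCs and 6.13 FPKM in ES cells, and Pfkfb3, which speeds up glycolysis, had 19.9 FPKM in day 6 PGCLCs and 2.11 FPKM in ES cells. The hexokinases differed in direction. Hk1 had 58.9 FPKM in PGCLCs against 28.3 FPKM in ES cells, and Hk2 had 18.5 FPKM in day 6 PGCLCs and 47.1 FPKM in ES cells. Ldha, lactate dehydrogenase A, had 64.5 FPKM in day 6 PGCLCs and 205 FPKM in ES cells. Gapdh was listed at 0.151 FPKM in PGCLCs against 0.757 FPKM in ES cells and Eno1 at 0 in both, although every cell uses them. Both have many near-identical copies in the genome, and no statement is made on them. In cholesterol synthesis and its control, 1 of 25 genes was higher and 5 were lower, with a median of -0.62. Nsdhl, an X-linked enzyme of the pathway, had 9.18 FPKM in day 6 PGCLCs and 42.7 FPKM in ES cells, and Hmgcs1, at its start, had 71.1 FPKM in day 6 PGCLCs and 32.7 FPKM in ES cells.

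Adhesion genes went both ways. Of 35 listed 31 passed the filter, and 9 were higher and 13 lower. Cdh1 (E-cadherin) had 23.9 FPKM in PGCLCs against 59.8 FPKM in ES cells, while Cdh3 (P-cadherin) had 36.2 FPKM in day 6 PGCLCs and 3.42 FPKM in ES cells (log2 ratio 3.07). Cldn7, a tight junction protein, had 80.7 FPKM in day 6 PGCLCs and 6.34 FPKM in ES cells, and its binding partner Epcam had 95.9 FPKM in PGCLCs against 33.9 FPKM in ES cells. Cldn4 went the other way, with 10.4 FPKM in day 6 PGCLCs and 48.7 FPKM in ES cells. The laminin and basement membrane genes were mainly lower. Lama5 had 0.714 FPKM in day 6 PGCLCs and 36.6 FPKM in ES cells (log2 ratio -4.45), Lamc1 had 13.6 FPKM in PGCLCs against 77.7 FPKM in ES cells, and Nid1 had 1.70 FPKM in day 6 PGCLCs and 32.3 FPKM in ES cells. Itga6, a laminin receptor chain, had 1.88 FPKM in day 6 PGCLCs and 19.4 FPKM in ES cells, and Vim (vimentin) had 31.0 FPKM in PGCLCs against 197 FPKM in ES cells.

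The genes with the highest ratios outside the lists included Isl2, a LIM homeobox factor, with 46.0 FPKM in day 6 PGCLCs and 0.00820 FPKM in ES cells. Plcd1, a phospholipase, had 115 FPKM in day 6 PGCLCs and 1.51 FPKM in ES cells, and Lgals9, a galectin, had 51.3 FPKM in PGCLCs against 0.428 FPKM in ES cells. Lgals1, another galectin, showed one of the largest gains in level, with 334 FPKM in day 6 PGCLCs and 26.2 FPKM in ES cells. All of these were also detected in E12.5 PGCs, Isl2 at 24.7, Plcd1 at 52.8, Lgals9 at 6.56 and Lgals1 at 274 FPKM.

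The largest losses in level were those of the metallothioneins, small proteins that bind zinc and copper. Mt2 had 96.4 FPKM in day 6 PGCLCs and 2138 FPKM in ES cells (log2 ratio -4.46), and Mt1 had 43.3 FPKM in PGCLCs against 1295 FPKM in ES cells (log2 ratio -4.87). Apoe, a lipid carrier, had 234 FPKM in day 6 PGCLCs and 805 FPKM in ES cells, and Ftl1, a ferritin chain with many genomic copies, had 211 FPKM in day 6 PGCLCs and 646 FPKM in ES cells. Among the lowest ratios were Pla2g1b, a secreted phospholipase, with 0.0280 FPKM in PGCLCs against 84.5 FPKM in ES cells, and Upp1, a uridine phosphorylase, with 1.57 FPKM in day 6 PGCLCs and 124 FPKM in ES cells. Hspb8, a small heat shock protein, had 0.133 FPKM in day 6 PGCLCs and 67.1 FPKM in ES cells, and Laptm5, a lysosomal membrane protein, had 0.0759 FPKM in PGCLCs against 87.3 FPKM in ES cells.

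The cell type labels were set against defining markers. Of 6 PGC markers, Prdm1, Tfap2c, Nanos3, Dnd1 and Dppa3 were higher in day 6 PGCLCs, and Prdm14 was within 2-fold. Of 5 ES cell markers, Klf4, Tfcp2l1, Fgf4 and Nr0b1 were lower, and Esrrb was within 2-fold. The longer lists these come from were more mixed, as their counts show. Markers of other cell types were low. The summed level of 10 neural markers was 11.8 FPKM in day 6 PGCLCs and 35.9 FPKM in ES cells, that of 14 endoderm markers 4.06 FPKM in day 6 PGCLCs and 1.22 FPKM in ES cells, and that of 12 trophoblast markers 17.0 FPKM in day 6 PGCLCs and 8.33 FPKM in ES cells. Afp, Ttr and Cer1 of the endoderm, and Elf5, Tpbpa and Prl3d1 of the trophoblast, were at 0 in day 6 PGCLCs, while Krt7 had 10.8 FPKM in day 6 PGCLCs and 0.383 FPKM in ES cells.

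The 11 fibroblast markers summed to 17.2 FPKM in day 6 PGCLCs and 5.15 FPKM in ES cells, with none at 0 in the PGCLCs and Col3a1, Lum, Dcn and Postn at 0 in ES cells. Col1a1 had 6.88 FPKM in day 6 PGCLCs and 0.878 FPKM in ES cells, and Acta2 had 3.75 FPKM in PGCLCs against 0.0447 FPKM in ES cells. Their part in the mesoderm and adhesion values was not tested. The 12 blood and endothelial markers summed to 90.9 FPKM in day 6 PGCLCs and 26.6 FPKM in ES cells, of which Pecam1, which germ and ES cells also use, gave 85.7 FPKM in day 6 PGCLCs and 24.8 FPKM in ES cells. The embryonic globins were at 0 in both. The 10 gonadal somatic markers summed to 1.17 FPKM in day 6 PGCLCs and 11.0 FPKM in ES cells.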

How the data were processed

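Directional poly(A) libraries were prepared after 12 cycles of PCR and sequenced on a HiSeq2000, per the labels' protocols. The submitters' processing notes list TopHat2, Bowtie2 2.0.13, Cufflinks and Cuffdiff 2.2.1, and name the build mm10 (GRCm38). The authors deposited FPKM values, 1 column per group, so the 2 PGCLC and 3 ES cell libraries cannot be seen apart and no test was possible. The sources used here do not give the depth. From these values log2(FPKM + 1) ratios were computed over genes with at least 1 FPKM in either group, and called at 2-fold.

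Members were read from 42 gene lists (1565 symbols, of which 1562 matched directly, 2 through a former symbol and 1 was not found). Members and lists were chosen with earlier results of these data known. List members, the 15 highest and 15 lowest ratios with at least 10 FPKM, and the 10 largest differences in FPKM each way could be named. Chromosomes, gene positions and promoters came from RefSeq for GRCm38.p6, and 47 genes compared had no single chromosome. Alternatives were pseudocounts of 0.1, 5 and none, filters of 5 FPKM and of none, quantile normalization, centring, equal sums and a 4-fold threshold. With 1 value per group, how often the calls are wrong in these data was not tested. The software was pandas 2.3.3 and NumPy 2.4.6 in Python 3.11.15, with figures from matplotlib 3.10.9.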

Additional observations from a re-analysis of the deposited data

How the results depend on the processing

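No paired analysis was possible because the table holds 1 value per group, and for the same reason no library could be left out. The 1371 higher and 1712 lower calls became 591 and 759 with a pseudocount of 5 FPKM, and 356 and 520 at 4-fold. Under the other 7 alternatives run they stayed within 1.5 times, at 949 to 1772 higher and 1169 to 2138 lower. Of 164 list members called with at least 10 FPKM, 137 were still called with a pseudocount of 5, 163 under quantile normalization, 161 under equal sums and 164 after centring. A change of pseudocount, filter or threshold cannot turn the direction of a single gene, though it can turn that of a list median. Centring and equal sums moved ratios too little to turn a gene called at 2-fold. The median log2 ratio was 0 after centring and 0.06 under equal sums. Under quantile normalization, no called gene turned among 554 checked. These were list members, gene families left out, and the genes with the largest ratios or differences. Of 41 list medians, 9 came inside 2-fold with a pseudocount of 5, 7 with no filter and 1 each under quantile normalization, centring and equal sums, and 1 passed 2-fold with a pseudocount of 0.1. With no pseudocount, 3 of 37 came inside and 2 passed it, and with a filter of 5 FPKM 3 of 40 passed it. The median of the fibroblast markers was 1.33 and turned to -0.86 with no pseudocount, over the few members with at least 1 FPKM in both groups. Counting that list, 3 medians changed sign with no pseudocount, 2 with a filter of 5 FPKM, and 1 each with a pseudocount of 0.1 and with no filter. Medians of the ribosomal and proteasome lists, near 0, changed sign under quantile normalization and equal sums, and that of the oxidative phosphorylation list under quantile normalization. The X-linked median, an alternative set chosen after seeing the data, ran from -0.77 to -0.39. With 1 value per group, neither the spread between libraries nor counting error limits can be given, and differences near 2-fold or near 1 FPKM are the least secure.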

Other observations

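Large gene families were described in the same way. Of 73 cytosolic ribosomal protein genes compared, none was higher and 5 were lower (6.85%) in day 6 PGCLCs. Of 76 nuclear oxidative phosphorylation genes 3 were higher (3.95%) and 2 lower (2.63%). Over all genes compared, 11.7% were higher and 14.6% lower. Both of the lower ones in the second family, Ndufa1 (56.6 FPKM in day 6 PGCLCs and 215 FPKM in ES cells) and Cox7b, are X-linked. Of the lower ribosomal genes, Rpl36a and Rpl39 are X-linked, and Rpl27a, Rpl30 and Rps12 are autosomal. Rpl36a entered through ES cells alone, with 0.238 FPKM in day 6 PGCLCs and 1.70 FPKM in ES cells. Of 36 proteasome genes, 2 were lower (5.56%). They were Psma8, the subunit of the germ cell proteasome in mouse testis, with 4.50 FPKM in day 6 PGCLCs and 14.1 FPKM in ES cells, and Psmb10, of the immunoproteasome, with 3.49 FPKM in day 6 PGCLCs and 10.2 FPKM in ES cells.

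Solute carriers went both ways, with 23 of 195 higher and 39 lower, shares to be read against 11.7% and 14.6% of all genes. A few carriers of metals are given as examples. Slc40a1 (ferroportin), the iron exporter, had 14.4 FPKM in PGCLCs against 0.0342 FPKM in ES cells, and Slc39a14, which brings in zinc and iron, had 21.1 FPKM in day 6 PGCLCs and 1.85 FPKM in ES cells. Slc39a4, the intestinal zinc importer, had 2.19 FPKM in day 6 PGCLCs and 21.8 FPKM in ES cells. These 3 were chosen after their values were seen.

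Of 276 numbered zinc finger genes, 20 were higher (7.25%, against 11.7% of all genes compared) and 15 lower (5.43%, against 14.6%). Of 39 Hox genes, 4 passed the filter. All 4 were under 1 FPKM in day 6 PGCLCs and entered through ES cells alone, so the filter fixed their direction. Hoxc13 is an example, with 0.0132 FPKM in PGCLCs against 5.36 FPKM in ES cells. None of 13 genes of the 2-cell-like state reached 1 FPKM in either group. In the histocompatibility list, B2m, the class I light chain, had 2.11 FPKM in day 6 PGCLCs and 13.0 FPKM in ES cells, and Tapbp, which loads peptides, had 35.8 FPKM in day 6 PGCLCs and 14.2 FPKM in ES cells. Of 16 oocyte genes 6 passed the filter, with a median log2 ratio of 0.58. Of these, 2 were higher and 2 lower, each 33.3%, against 11.7% and 14.6% of all genes compared. The lowest ratio was that of Ooep, of the maternal complex under the egg surface, with 13.0 FPKM in PGCLCs against 172 FPKM in ES cells.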
